A study of Mus musculus with 4 samples.

Results

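In total, 10 long noncoding RNAs were read from the RNA sequencing of tumor-associated macrophages (TAMs) of mice given vehicle or propranolol. They were 2 nuclear-retained RNAs, Malat1 and Neat1, 7 hosts of small nucleolar RNAs (snoRNAs), Gas5, Snhg1, Snhg5, Snhg6, Snhg8, Snhg12 and Snhg15, and 1 short RNA made by RNA polymerase III, Bc1. Members were the rows of the count table whose Ensembl identifier carries one of these symbols in GENCODE M21, 10 of 54146 genes listed. All 10 passed the filter on low counts, but Bc1 passed only through the vehicle libraries.

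Both groups came from female mice of 8 to 16 weeks with MCA205 fibrosarcoma, a transplanted mouse sarcoma cell line, grown from 1000000 cells under the skin of the right flank. Propranolol, a blocker of beta-adrenergic receptors, was dissolved in the drinking water at 0.5 g/L from the day the tumor cells were given, and the controls are labelled vehicle. TAMs were enriched with CD45 beads and sorted as live CD11b+ F4/80+ cells, and RNA with a RIN above 7.5 was selected with poly(dT), 400 ng per library. The strain of the sequenced mice, and whether a library came from 1 mouse or a pool, are not given for these samples, so p-values measure the spread between these 2 libraries of a group only. Counts assigned to genes came to 13798249 and 23018142 in vehicle libraries 1 and 2, and to 39818103 and 16424081 in propranolol libraries 1 and 2. The macrophage label fitted its markers, as none of the 12 genes of the macrophage list was at 0 and they summed to 33807, 32007, 42779 and 41467 CPM, in the order vehicle 1, vehicle 2, propranolol 1, propranolol 2, which is kept below. CPM throughout is the count for each 1000000 counts of the TMM-scaled library size.

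Malat1 is an abundant RNA of nuclear speckles, the bodies where splicing factors gather, and Neat1 is the scaffold of paraspeckles, nuclear bodies that hold RNA-binding proteins and edited RNAs. The mature 3′ end of Malat1 and of the long Neat1 form is cut by RNase P rather than polyadenylated. snoRNA host genes carry snoRNAs in their introns: the snoRNAs are cut from the spliced-out introns and guide the modification of ribosomal RNA, while the spliced exons leave for the cytoplasm, often are poorly translated and can be removed by nonsense-mediated decay. Gas5 is the classic case, named for rising in growth-arrested cells, and several hosts begin with a pyrimidine tract of the kind found on ribosomal protein mRNAs. Bc1 is a short cytoplasmic RNA known from neurons, where it represses translation, and it is the founder of the ID family of repeats.

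Sequences of the members show what poly(dT) selection could bind. Bc1 has no poly(A) tail of its own, so the whole 168-base RNA (GRCm38, chr7:144914470-144914637, plus strand, GENCODE) is given with its longest run of A in capitals.
Bc1: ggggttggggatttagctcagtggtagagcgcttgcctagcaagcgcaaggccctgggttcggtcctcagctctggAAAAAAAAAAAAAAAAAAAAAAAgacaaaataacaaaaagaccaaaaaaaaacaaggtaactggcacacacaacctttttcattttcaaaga
That run is 23 bases long, and 0.908% of the 54079 listed genes with a transcript sequence hold one at least as long. Malat1 holds a run of 12, which 7.17% of the listed genes match or exceed, and it ends 298 bases before the annotated 3′ end. It is shown in capitals in a 60-base window of the minus strand (chr19:5795964-5796023).
Malat1: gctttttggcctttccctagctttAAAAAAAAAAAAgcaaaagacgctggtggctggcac
Snhg12 also held a run of 12, while Neat1 and Snhg5 reached 7 and the other members 4 or 5.

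The starts of 4 hosts are shown with their longest run of C and T in capitals, because such a tract at the first base marks mRNAs of the ribosomal protein type. Each window holds 10 bases before and 20 bases from the RefSeq start on (GRCm38). The windows are chr3:123508317-123508346 (minus) for Snhg8, chr19:8723477-8723506 (plus) for Snhg1, chr1:161035156-161035185 (plus) for the downstream of the 2 listed Gas5 starts, and chr4:132308668-132308697 (plus) for Snhg12.
Snhg8: gttcagaagTCTCTTTggctgcgatccgcc
Snhg1: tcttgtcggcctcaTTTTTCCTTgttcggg
Gas5: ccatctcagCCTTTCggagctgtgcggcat
Snhg12: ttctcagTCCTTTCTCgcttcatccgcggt
The runs were 7, 9, 6 and 9 bases long. Of all 32851 windows of this size in the table, 17.9%, 7.11%, 28.7% and 7.11% held a run at least as long. RefSeq windows were found for 8 of the 10 members, not for Neat1 and Snhg6. The runs of Snhg8, Gas5 and Snhg12 span the RefSeq start, and that of Snhg1 begins downstream of it. The upstream Gas5 start held a run of 3 (88.3% of windows as long), Snhg15 one of 4 (68.6%) and Snhg5 one of 7 (17.9%), against a median of 4 over all windows.

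Across the transcriptome, 1798 of 14688 tested genes (12.2%) were higher and 2286 (15.6%) lower in propranolol TAMs by edgeR's quasi-likelihood test, at an adjusted p under 0.05 and over 1.5-fold. Among the 9 members with counts in both groups, Snhg8 was higher, Malat1 and Snhg1 were lower, and 6 did not pass. Bc1, whose direction the filter fixed, is described below without a test. The median log2 fold change was -0.21 over the 9 members and -0.02 over all tested genes. The libraries of the groups did not overlap for 7 of the 9, 2 of them higher and 5 lower after propranolol, where 35.8% of all tested genes were separated upward and 36.9% downward.

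The GC content of a gene moved with its fold change in these data. Exon GC of the 10 members ran from 40.5% to 53.9%, and 9 of them lie below the median tested gene (49.6%). In the tenth of tested genes with the lowest GC, the median log2 fold change was -0.94 and 885 of 1469 genes were lower. In the tenth with the highest GC it was 0.46, with 482 of 1468 genes higher. A second fit with GC offsets, which takes the smooth GC curve out of each library, called 1121 genes higher (7.64%) and 730 lower (4.97%), a split of 60.6% higher against 44.0% without offsets. It moved the median of all tested genes from -0.02 to 0.09. The offsets take out any group difference that runs along GC, whether it arose in the cells or in the libraries, and these cannot be told apart here. With these offsets Snhg8 was called higher, and the calls for Malat1 and Snhg1 were not made, and the median over the 9 members turned to 0.19, so each member is given both ways.

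**Figure D1:**
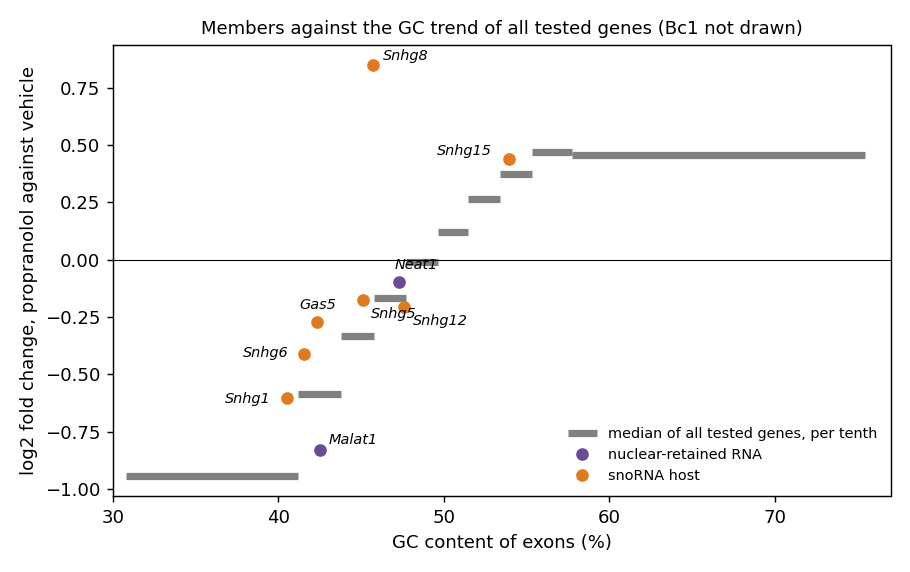
Exon GC content in percent (x axis) against the log2 fold change of propranolol over vehicle (y axis). Grey bars are the medians of all tested genes in 10 bins of GC, points are 9 members (Bc1, with no counts after propranolol, is not drawn). Snhg8, at 45.7% GC and 0.85, sits well above the grey bar at its GC. Snhg1, at 40.5% and -0.60, is under 0 but above its bar, which is at -0.94.

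Malat1 (chr19:5795690-5802672, minus strand, a lincRNA of 6983 exon bases) was by far the most abundant member. Its level was 1321 and 2156 CPM in the vehicle libraries and 725 and 1232 CPM in the propranolol libraries. Both propranolol libraries were below both vehicle libraries, but propranolol library 2 came close to vehicle library 1, and library 2 was over library 1 in each group, by 1.63-fold in vehicle and 1.70-fold in propranolol. The log2 fold change was -0.83 ± 0.25 (SE, edgeR adjusted p = 0.0219, n = 2 per group). With GC offsets it was -0.22 ± 0.27 (edgeR adjusted p = 0.61), and DESeq2's Wald test gave -0.82 with an adjusted p of 0.196. The change also dropped under 1.5-fold without vehicle library 2 (-0.41) or without propranolol library 1 (-0.49). Genes annotated on either strand within Malat1 share 7.72% of its exon bases. Malat1 ranked 46th and 32nd among all genes by count in the vehicle libraries, and 170th and 82nd in the propranolol libraries.

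Neat1 (chr19:5824708-5845478, minus strand, 20771 exon bases) lies on the same strand of chromosome 19 as Malat1. Its level was 239 and 355 CPM in vehicle TAMs and 214 and 343 CPM in propranolol TAMs. The groups overlapped, and as for Malat1 library 2 was the higher one in each group (1.48-fold and 1.61-fold). The log2 fold change was -0.10 ± 0.22 (edgeR adjusted p = 0.751), and it was 0.12 ± 0.23 with GC offsets. Its sign depended on the libraries used, from -0.44 without propranolol library 2 to 0.24 without vehicle library 2.

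The ratio of Malat1 to Neat1 counts within a library does not depend on the scaling between libraries. It was 5.52 and 6.07 in the vehicle libraries and 3.39 and 3.59 in the propranolol libraries. It separated the groups, with a log2 difference of -0.73, and libraries of one group differed by at most 0.14. Malat1 is the member of lower GC (42.5% against 47.3%), and with GC offsets the log2 fold changes of Malat1 and Neat1 were -0.22 and 0.12. No test was run on this ratio.

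**Figure D2:**
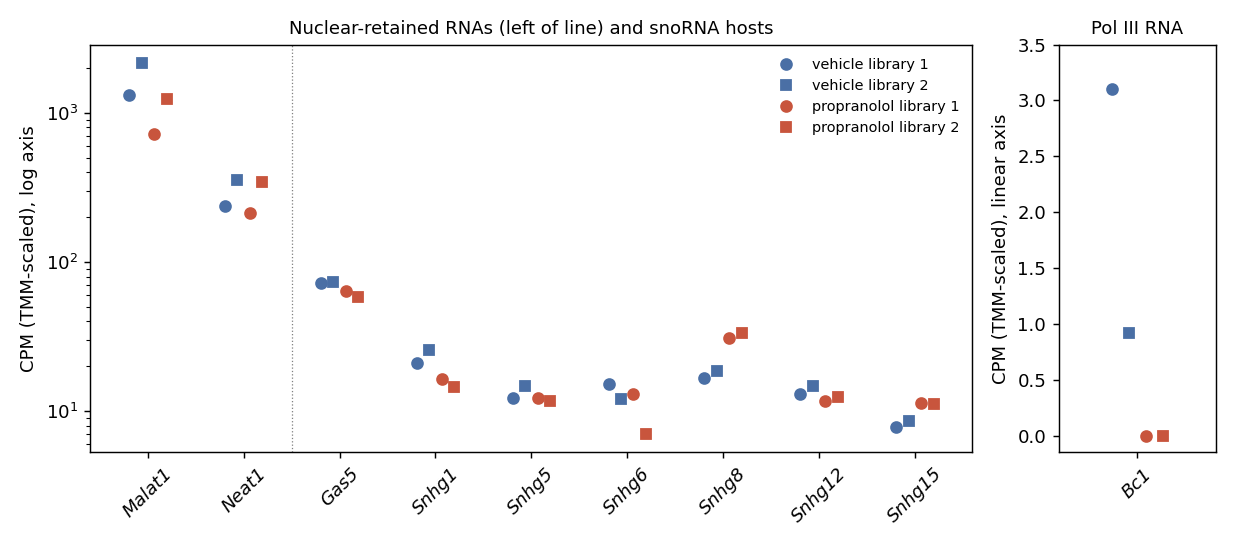
TMM-scaled CPM of the 10 members in each library, on a log axis for the nuclear-retained RNAs and snoRNA hosts and on a linear axis for Bc1; circles are library 1 and squares library 2 of each group. Snhg8 is the host whose propranolol libraries (31.0 and 33.3 CPM) stand farthest above its vehicle libraries (16.8 and 18.7 CPM), and Bc1 has no counts after propranolol.

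Snhg8 (chr3:123507552-123508404, minus strand, 853 exon bases) hosts Snora24, an H/ACA box snoRNA, the class that guides pseudouridylation. The counts were 249 and 470 in vehicle libraries and 1126 and 508 in propranolol libraries, which made 16.8 and 18.7 CPM against 31.0 and 33.3 CPM. Libraries of a group lay close together and the groups were far apart. The log2 fold change was 0.85 ± 0.14 (edgeR adjusted p = 0.00102), a 1.80-fold higher level, and 1.17 ± 0.13 with GC offsets (edgeR adjusted p = 0.000651). Leaving out any 1 library gave 0.83 to 0.95, and the edgeR, DESeq2 or limma adjusted p was at most 0.00197 in every fit run. Snhg8 was the only member called higher. It was called higher in every fit at the 1.5-fold threshold.

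Snhg1 (chr19:8723475-8726443, plus strand, 2969 exon bases) carries 8 annotated snoRNA genes, among them Snord22. Its level was 21.2 and 25.9 CPM in vehicle and 16.4 and 14.5 CPM in propranolol TAMs. The groups did not overlap, and the log2 fold change was -0.60 ± 0.16 (edgeR adjusted p = 0.0131), a fold of 1.52 that lies just past the threshold of 1.5. At 40.5% GC it sits where most genes were lower, and with GC offsets its sign turned, to 0.20 ± 0.15 (edgeR adjusted p = 0.372). Without vehicle library 2 the log2 fold change was -0.43, and without propranolol library 2 it was -0.49. With no filter on low counts it was -0.53. Each of these changes was under 1.5-fold.

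Gas5 (chr1:161034422-161038539, plus strand, 3760 exon bases) was the host with the most counts and carries 10 annotated snoRNA genes, among them overlapping entries of Snord80. Its level was 72.8 and 74.1 CPM in vehicle TAMs and 63.6 and 58.0 CPM in propranolol TAMs. The propranolol libraries were the lower ones without overlap, by -0.27 ± 0.11 on the log2 scale, and the call was not made (edgeR adjusted p = 0.0665). With GC offsets the sign turned, to 0.34 ± 0.10 with an edgeR adjusted p of 0.0308, a 1.5-fold change not being reached in either fit.

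Snhg15 (chr11:6525591-6528760, minus strand), host of Snora9, had the highest exon GC of the members, 53.9%. Its level was 7.89 and 8.65 CPM in vehicle and 11.3 and 11.1 CPM in propranolol libraries, without overlap. The log2 fold change of 0.44 ± 0.19 did not pass (edgeR adjusted p = 0.093). With GC offsets it was 0.19 ± 0.18 (edgeR adjusted p = 0.493). 

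The remaining 3 hosts were neither called higher nor lower. Snhg5 (chr9:88521050-88522929, minus strand), host of the C/D box snoRNAs Snord50a and Snord50b, had 12.3 and 14.7 CPM against 12.2 and 11.7 CPM, a log2 difference of -0.18 ± 0.18 that was 0.19 with GC offsets. Snhg12 (chr4:132308623-132311024, plus strand) carries 5 annotated snoRNA genes, among them overlapping entries of Snora16a. It had 13.0 and 14.8 CPM against 11.7 and 12.5 CPM, or -0.21 ± 0.17, and -0.02 with GC offsets. In both, the propranolol libraries lay below the vehicle libraries without overlap, and the differences did not pass (edgeR adjusted p = 0.454 and 0.373). Snhg6 (chr1:9941959-9944118, minus strand), host of the C/D box snoRNA Snord87, was the most variable host, with 15.2 and 12.2 CPM against 13.0 and 7.07 CPM. Its groups overlapped, and the log2 difference of -0.41 ± 0.27 did not pass (edgeR adjusted p = 0.246). It ranged from -0.94 without propranolol library 1, where the edgeR adjusted p was 0.00625 and the call lower was made, to -0.04 without propranolol library 2, and it was 0.27 with GC offsets.

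Together the 7 hosts held 159 and 169 CPM in vehicle and 159 and 148 CPM in propranolol libraries. Of the 7, 5 had a log2 fold change under 0 and 2 over 0, with a median of -0.21. With GC offsets 6 were over 0 and 1 under 0, with a median of 0.20, and Snhg8 was the 1 host called. The median of all tested genes was -0.02 without and 0.09 with GC offsets. Thus the direction of Gas5, Snhg1, Snhg5 and Snhg6 depended on the GC offsets, while that of Snhg8 did not. Snhg15 kept its sign, but near its SE with GC offsets (0.19 ± 0.18). Snhg12 had no clear direction left with GC offsets (-0.02 ± 0.17).

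**Figure D3:**
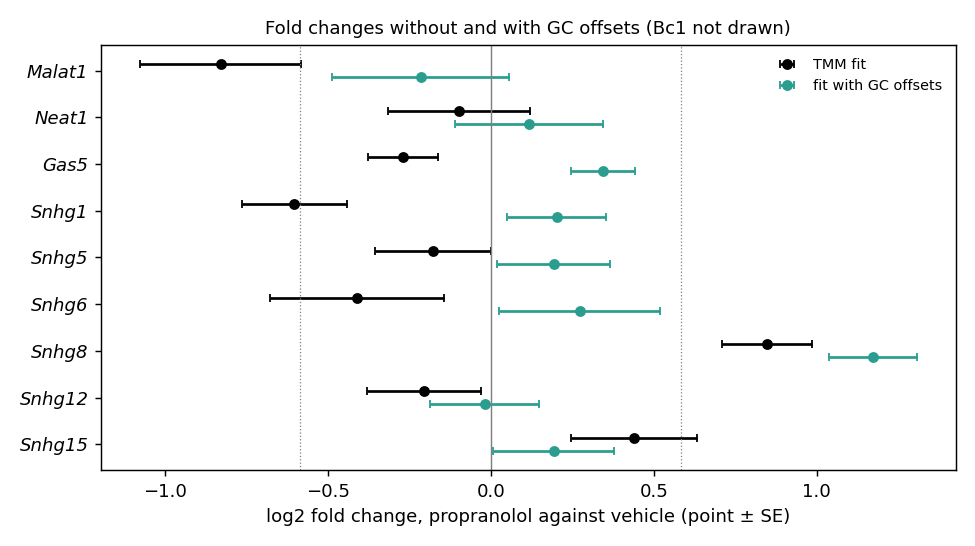
Log2 fold change of propranolol over vehicle (points) with its SE (bars) for 9 members, from the TMM fit (black) and the fit with GC offsets (green); dotted lines mark 1.5-fold. Gas5, Snhg1, Snhg5, Snhg6 and Neat1 change sign, Malat1 moves from -0.83 to -0.22, and Snhg8 stays past 1.5-fold (0.85 and 1.17).

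Compared per kb of exon, which counts every annotated exon including retained introns and so understates spliced hosts with long unions, the means of Malat1, Snhg8, Gas5 and Neat1 led in that order in both groups. Mean levels in vehicle TAMs were 249 CPM per kb for Malat1, 20.8 for Snhg8, 19.5 for Gas5, 14.3 for Neat1, 12.0 for Bc1 and for Snhg6, 7.93 for Snhg1, 7.81 for Snhg5, 6.09 for Snhg15 and 5.79 for Snhg12. In propranolol TAMs they were 140 for Malat1, 37.7 for Snhg8, 16.2 for Gas5 and 13.4 for Neat1, then 8.76 for Snhg6, 8.26 for Snhg15, 6.92 for Snhg5, 5.21 for Snhg1 and 5.04 for Snhg12. In vehicle TAMs, Snhg8 (19.7 and 22.0 CPM per kb) and Gas5 (19.4 and 19.7) lay within the spread of the libraries. In propranolol TAMs Snhg8 (36.3 and 39.0) was apart from Gas5 (16.9 and 15.4). Neat1 could not be ordered against Gas5 in propranolol TAMs (16.5 against 15.4 in library 2), nor against Bc1 and Snhg6 in vehicle TAMs (11.5 against 18.5 and 13.3 in library 1). Neat1 and Snhg6 could not be ordered in propranolol TAMs either (10.3 against 11.4 in library 1, 16.5 against 6.17 in library 2). In vehicle TAMs Bc1 was above Snhg6, Snhg1, Snhg5, Snhg15 and Snhg12 in library 1 (18.5). It was below them in library 2 (5.46 against 10.6, 8.73, 8.48, 6.36 and 6.16), so it could not be ordered against these hosts. Snhg6 could not be ordered against Snhg15 and Snhg5 in propranolol TAMs (11.4 against 8.34 and 7.06 in library 1, 6.17 against 8.19 and 6.78 in library 2). Snhg1 and Snhg5 could not be ordered in vehicle TAMs, nor Snhg1 and Snhg12 in propranolol TAMs.

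Nuclear-retained RNAs were set against snoRNA hosts within each library, as the log2 ratio of Malat1 plus Neat1 counts to the summed counts of the 7 hosts. It was 3.29 and 3.89 in the vehicle libraries and 2.56 and 3.41 in the propranolol libraries, which is 9.79 and 14.9 nuclear counts per host count against 5.89 and 10.6. The mean difference was -0.61, but the groups overlapped, with propranolol library 2 over vehicle library 1. It rested on Malat1: Neat1 alone over the hosts gave 0.59 and 1.07 in vehicle and 0.43 and 1.21 in propranolol TAMs, a difference of -0.011. Library 2 was the higher one in both groups for this ratio as well.

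**Figure D4:**
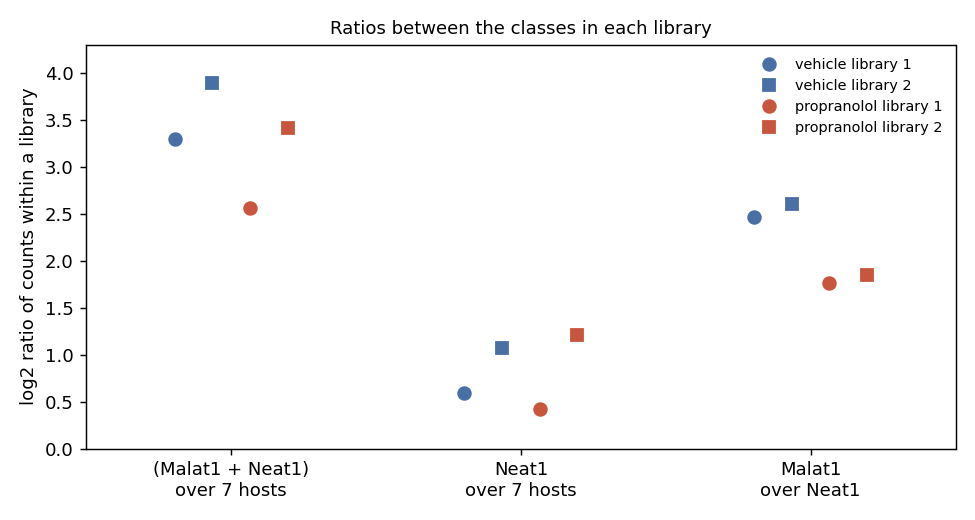
Log2 ratio of counts within a library for the nuclear-retained RNAs over the 7 snoRNA hosts, Neat1 over the hosts, and Malat1 over Neat1; circles are library 1 and squares library 2. The first 2 ratios overlap between groups (for example 2.56 to 3.41 in propranolol and 3.29 to 3.89 in vehicle), the third does not (1.76 and 1.84 against 2.46 and 2.60).

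Bc1 (chr7:144914470-144914637) was counted 46 and 23 times in the vehicle libraries and 0 times in both propranolol libraries, although propranolol library 1 was the deepest. In CPM the vehicle libraries held 3.10 and 0.917, a 3.38-fold spread within the group. Against a floor of 3 counts over both propranolol libraries, Bc1 was at least 29.7-fold lower after propranolol. No p is given, since a gene that passes the filter only through the vehicle libraries has to differ. The bound was 8.78-fold without propranolol library 1, 15.2-fold without vehicle library 1, 20.5-fold without propranolol library 2 and 53.0-fold without vehicle library 2. The values cover counting of fragments only and rest on 69 fragments. Bc1 has near-identical repeat copies in the genome and reads were kept only at high mapping quality, so its count is uncertain. Neuron markers were low: Elavl4 was at 0 in all libraries, and the 11 markers summed to 7.75, 6.62, 6.33 and 6.02 CPM, led by Camk2a with 26, 56, 117 and 54 counts. Of the 4 tested, 2 had a log2 fold change over 0, Camk2a (0.74) and Tubb3 (0.59) among them, and 2 under 0. Map2, a neuronal microtubule protein with 35, 70, 30 and 1 counts, was the 1 called, lower (log2 -2.31, edgeR adjusted p = 0.0222), where 15.6% of all tested genes were lower.

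Other RNAs that are not tailed in the usual way give a view of what escapes poly(dT) selection. Of the 12 small RNAs listed, 1 was tested, Rn7sk, the polymerase III RNA that holds the elongation factor P-TEFb inactive. Its counts were 1809, 4500, 4720 and 3859, library 2 over library 1 in CPM in each group as for Malat1, and the log2 fold change was 0.34 ± 0.26 (edgeR adjusted p = 0.338). Of 1507 annotated snoRNA genes, 17 were tested, 1 of them higher. The snoRNAs inside the 7 hosts were not measured: 27 of the 28 genes had no counts in any library, and Snord87 had 1. All but Snord87 share bases with annotated exons of their host, where featureCounts by default leaves fragments that fit more than 1 gene uncounted. Among these 6 hosts, snoRNA genes cover from 8.32% (Snhg5) to 20.9% (Snhg1) of the exon bases. Intronic snoRNAs are also short and untailed, as 2 examples with their known boxes in capitals show. Snord47 (in Gas5, chr1:161038082-161038158, plus) has boxes C (TGATGA) and D (CTGA), and Snora24 (in Snhg8, chr3:123507937-123508066, minus) has an ACA box 3 bases before its end.
Snord47: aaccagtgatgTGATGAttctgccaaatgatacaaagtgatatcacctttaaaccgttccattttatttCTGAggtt
Snora24: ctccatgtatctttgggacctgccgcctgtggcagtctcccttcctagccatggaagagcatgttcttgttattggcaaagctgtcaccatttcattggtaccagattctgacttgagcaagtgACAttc

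Neighbours of the members moved in their own ways. Zbtb37, which starts opposite Gas5, was lower (log2 -1.14 ± 0.20, edgeR adjusted p = 0.00165), and -0.43 with GC offsets (edgeR adjusted p = 0.169). Slc3a2, a subunit of amino acid transporters that starts 106 bases from Snhg1 on the other strand, had a log2 difference of 0.55 ± 0.09, under 1.5-fold, where Snhg1 had -0.60. Myo1g, 4626 bases from Snhg15 on the same strand, was higher (0.75 ± 0.11) as was Frmd8, 4224 bases from Neat1 on the same strand (0.95 ± 0.10). Trnau1ap beside Snhg12 (0.11 ± 0.17) and LTO1 beside Bc1 (0.41 ± 0.15) did not pass. No gene beside Snhg8, such as Prss12 with 0, 7, 1 and 1 counts, had enough counts for a test.

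Further snoRNA hosts were read beside the same background of 12.2% higher and 15.6% lower, or 7.64% and 4.97% with GC offsets. Of 14 other noncoding hosts listed, 12 were found and 8 tested, of which 1 was higher (1810032O08Rik, the host also called Snhg16, log2 0.70 ± 0.21) and 2 lower (Snhg18 at -1.85 and Epb41l4aos at -1.07). Snhg3, with 0.877, 0.678, 0.193 and 0.0655 CPM, passed the filter only through the vehicle libraries, so its lower call is not counted here. With GC offsets 1 was higher and 1 lower, Epb41l4aos, and Snhg18 was not called (edgeR adjusted p = 0.0868). With Snhg3, the 4 calls became 1 without vehicle library 1 and 2 without either propranolol library. These names were chosen by their calls. The most abundant, Zfas1, had 31.2, 30.4, 31.4 and 27.4 CPM, a log2 difference of -0.06 ± 0.13. Of 28 protein-coding hosts, 5 (17.9%) were higher, with Hspa8, a chaperone, at 0.68 ± 0.09 and Eef2, the translocation factor of translation, at 0.82 ± 0.08, and 5 (17.9%) lower, among them Ncl, nucleolin, at -0.80 ± 0.13. With GC offsets 6 were higher and 1 lower, Rpl23a.

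Ribosomal proteins, whose mRNAs share the pyrimidine tract with several hosts, leaned upward: 34 of 79 were higher and 3 lower. Their log2 fold changes had a median of 0.50, against -0.02 over all tested genes. With GC offsets 25 were higher and 4 lower, with a median of 0.44, against 0.09 over all tested genes. Of all tested genes, 7.64% were higher and 4.97% lower with GC offsets. Rplp0 of the large subunit stalk was at 0.80 ± 0.08. Gas5 and Snhg1, with log2 fold changes of -0.27 and -0.60, lay below that median and Snhg8, at 0.85, above it. Of 16 snoRNP proteins, which hold or build snoRNA particles, 3 were higher, Ruvbl2 (1.14 ± 0.10), Ruvbl1 (0.76) and Fbl, the C/D box methyltransferase (0.68), and 2 lower, Nop58 (-0.62) and Naf1 (-1.05), which is 18.8% and 12.5% against the background of 12.2% and 15.6%. With GC offsets 4 were higher and 1 lower, and Nop58 turned to 0.12 (edgeR adjusted p = 0.571).

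Proteins that act with the members were read beside the background of 12.2% higher and 15.6% lower, or 7.64% and 4.97% with GC offsets. Of 13 paraspeckle proteins 1 was lower, Matr3 (-1.52 ± 0.12, and -0.48 with GC offsets), and of 14 speckle proteins 3 (21.4%) were lower, Srsf3, Luc7l3 and Bclaf1. With GC offsets 3 paraspeckle proteins were higher and Matr3 was under 1.5-fold, and 2 speckle proteins were higher and 1, Luc7l3, lower, with Srsf3 at -0.12 and Bclaf1 at -0.08. Among 16 nonsense-mediated decay factors, Upf1, the helicase of the pathway, was higher (0.74 ± 0.11) with Smg9 (0.77) and Eif4a3 (0.91), 18.8% in all, and Magohb was lower (-1.27). With GC offsets 2 were higher, Eif4a3 and Magoh, and Upf1, Smg9 and Magohb were not called. Leaving out propranolol library 1 raised the count of calls by over 1.5 times for the decay factors and the paraspeckle proteins. Leaving out vehicle library 2 did so for the paraspeckle proteins. Of 23 genes of the polymerase III machinery, Gtf3c5 was higher (0.70), and Polr3f, Bdp1, Gtf3c3 and Ssb, the La protein, were lower (17.4%), Ssb at -1.5 ± 0.16. With GC offsets none of these 5 passed, Ssb being at -0.41 and Gtf3c3 at 0.01, and 2 genes of the list were higher and 1 lower. Of 8 proteins known to bind Bc1, 3 (37.5%) were lower, Fmr1 (-1.29), Syncrip (-1.27) and Hnrnpa2b1 (-0.64), and with GC offsets none of these 3 passed and 2 others were higher.

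The wider class of long noncoding RNAs gives a frame for the members. Of 1025 tested annotated lncRNA genes, 19 (1.85%) were higher and 115 (11.2%) lower, against 12.2% and 15.6% of all tested genes. Their median log2 fold change was -0.27. With GC offsets, 19 were higher and 33 lower (3.22%, against 4.97% of all tested genes), and the median was -0.10. Of the 21 other well-known lncRNAs tested, 10 were lower and 0 higher, and 2 stayed lower with GC offsets, Meg3 and H19. Xist, which coats the inactive X chromosome, was at -0.86 ± 0.16 and -0.15 with GC offsets. Tug1 was at -0.89 ± 0.11 and turned to 0.23 with GC offsets. By edgeR 0 were called higher, with 1 above 0 at an unadjusted p under 0.05, Gm26917. It was at 0.35 ± 0.08 (edgeR adjusted p = 0.00722) and missed the call only by being under 1.5-fold. With GC offsets Gm26917 was at 0.47 (edgeR adjusted p = 0.00721). Among the same 21, DESeq2 called 0 higher and 7 lower.

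Markers of cell types other than macrophages were read beside the background of 12.2% of all tested genes higher and 15.6% lower. With GC offsets that background was 7.64% higher and 4.97% lower. Of 10 NK cell markers, 9 were lower, 6 with GC offsets, leaving aside Klra8, which passed the filter only through the vehicle libraries (summed CPM 183, 196, 71.4 and 39.6, most abundant Prf1), as were 9 of 10 T cell markers, 8 with GC offsets (267, 312, 140 and 76.0, most abundant Cd8a), and none of either list was at 0 in all libraries. Of 11 markers of fibroblasts or sarcoma cells 9 were lower, and 9 with GC offsets, 8 of them shared (2903, 1141, 669 and 707 CPM, most abundant Col3a1), while 7 of 10 tested neutrophil markers were higher (231, 249, 501 and 540 CPM, most abundant Csf3r). Of 4 tested B cell markers, Cd79b and Igkc were higher, leaving aside Ms4a1, which passed the filter only through the vehicle libraries (161, 186, 188 and 216 CPM, most abundant Ighm). With GC offsets 1 was higher, Igkc, and Cd79b was not called (edgeR adjusted p = 0.0791). DESeq2 also called 1 higher. Of 6 tested endothelial markers, Cdh5 was higher (16.7%, near the background), and none was with GC offsets (51.9, 48.5, 64.4 and 64.4 CPM, most abundant Pecam1). Of 5 tested erythroid markers, edgeR and DESeq2 called 0 with all libraries in the fit, with 1 at an unadjusted edgeR p under 0.05 (55.8, 33.8, 58.3 and 52.1 CPM, most abundant Hbb-bs). The edgeR count moved upward without vehicle library 1. Fewer cells of a type and less RNA per cell cannot be told apart in bulk RNA. Bc1 was highest in vehicle library 1 and next in vehicle library 2, as was the fibroblast or sarcoma sum, and so were the imprinted RNAs H19 (14.1, 6.26, 4.43 and 4.32 CPM) and Rian (6.0, 1.55, 1.13 and 0.131 CPM). The imprinted RNAs Meg3 (7.55, 3.51, 0.743 and 2.03 CPM) and Airn (2.29, 2.27, 0.935 and 0.851 CPM) had vehicle library 1 highest and vehicle library 2 next as well. The neuron marker sum (7.75, 6.62, 6.33 and 6.02 CPM) had this order too. Kcnq1ot1, another imprinted RNA called lower, had 21.8, 35.2, 9.10 and 17.2 CPM, with vehicle library 2 highest. Malat1 and Neat1 were also highest in vehicle library 2. The imprinted RNAs were named for their lower call, and Bc1 passed the filter only through the vehicle libraries. That their vehicle libraries came first therefore follows from how they were picked. Only the order of the 2 vehicle libraries was free, and for Airn these were nearly equal. How many other genes had the same order was not counted, so no origin of Bc1 is read from it. The part of these other cells in the results for the members was not tested.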

How the data were processed

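RNA was measured in 4 libraries of sorted TAMs, 2 vehicle and 2 propranolol. The authors aligned reads to mm10 with STAR (2.7.1a), kept those with a mapping quality above 30 using SAMtools (1.9) and counted read pairs over GENCODE exons with featureCounts (1.6.4), per the submitters' processing notes and the study's methods, which also name DESeq2 (1.39.0 in the notes). No strand option is given, so reads of overlapping antisense genes cannot be told apart. The deposited values are raw counts per gene. Here, symbols, exon lengths and GC content came from GENCODE M21 (GRCm38), which matched 54079 of 54146 listed identifiers; for 2 members the version differed. Start windows came from RefSeq (GRCm38.p6).

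Counts were tested with edgeR (4.0.16, R 4.3.3): TMM factors, filterByExpr with a minimum count of 10, quasi-likelihood test, Benjamini-Hochberg adjustment over all 14688 genes passing the filter, and changed meaning an adjusted p under 0.05 and over 1.5-fold. GC offsets came from a natural spline (5 degrees of freedom) of log2 CPM, relative to the gene's mean, on exon GC, fitted within each library. DESeq2 (1.42.0) and limma-voom (limma 3.58.1) were alternatives. A group with no counts was bounded against 3 counts. SEs come from the fit and include the spread between libraries, and the bound covers counting error only. Named genes were the members, the 3 most abundant tested genes of each list, genes within 5 kb of a member and snoRNA genes inside the hosts; others were named for their call. The members and lists were chosen with earlier results of these data known. Lists are described by counts and medians, without a set test. List symbols absent from GENCODE M21 were matched by older symbols in RefSeq.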

Additional observations from a re-analysis of the deposited data

How the results depend on the processing

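Calls over all genes went from 4084 to 1851 with GC offsets (1121 higher, 730 lower) and to 2120 with GC offsets and the replicate block (1180 higher, 940 lower). They were 6204 with no fold threshold (3205 higher) and 728 beyond a log2 fold change of 1.5 (61 higher, 667 lower). Leaving out 1 library gave 3615 to 4329 calls. The share of calls that were higher, 44.0%, was 35.9% with upper-quartile factors, 52% with no filter, 54.4% without vehicle library 1 and 50.8% without propranolol library 2. Of the 9 members other than Bc1, 2 were called lower by edgeR, and 0 with GC offsets (0 at an unadjusted p under 0.05), with GC offsets and the block (1 at an unadjusted p under 0.05) and beyond a log2 fold change of 1.5, where 0 were higher. Leaving out 1 library gave 0 to 2 lower. Counting Bc1, whose direction the filter fixed, these are 3, 1, 1, 1 and 1 to 3. The class ratio difference was -0.61, or -0.011 without Malat1, and -1.03 to -0.18 with 1 library left out. With GC offsets the signs of Neat1 (0.12), Gas5 (0.34), Snhg1 (0.20), Snhg5 (0.19) and Snhg6 (0.27) turned. With 1 library left out, Neat1 ranged from -0.44 to 0.24, over 0 without vehicle library 2 (0.24) or propranolol library 1 (0.21). The cause was not tested. Replicate numbers 1 and 2 come from the sample titles, which name no batch or day. Deviations of same-numbered libraries had r = 0.17 across genes, and whether the numbers mark a pairing was not tested. With the replicate block 4362 genes were called, Malat1 had an edgeR adjusted p of 1.3e-05, and no member's call changed; pairing with GC offsets gave 0.11 for Neat1, 0.35 for Gas5, 0.22 for Snhg1, 0.21 for Snhg5 and 0.21 for Snhg6. Of 120 pairs of list and alternative, 25 moved a count by over 1.5 times, 8 of them with GC offsets. Depth limits Bc1, with 69 counts in all, and hosts with few counts, such as Snhg6 (108 in propranolol library 2) and Snhg15 (117 in vehicle library 1).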
